A study of Mus musculus with 6 samples.

Results

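A set of 9 genes around the ubiquitin ligase subunit Asb2 was described in mouse melanoma tumours. They were found by symbol among the 55349 genes of a deposited count table, and all 9 passed the filter on low counts that left 13268 genes for testing. The members are Asb2, its ligase partners Elob, Eloc, Cul5 and Rnf7, its filamin substrates Flna and Flnc, and the lamin-interacting Mlip with Lmna. Asb2 and Mlip were proposed from the comparison described here, in which they ranked 6 and 5 by p, so their difference between the groups is given as a description with no test. The other 7 were proposed for their roles.

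B16F10, a mouse melanoma line that makes pigment, was grown as subcutaneous tumours, and total RNA of 6 tumours was sequenced. Of these, 3 were labelled shControl with genotype WT (replicates 1, 4 and 5) and 3 were labelled shSQLE with an SQLE knockdown genotype (replicates 1, 2 and 5), and no group was given a treatment. Lists of 3 values below follow that order of replicates. The series asks how depletion of Sqle, the squalene epoxidase of cholesterol synthesis, changes expression of these tumours in the animal. The sources used here do not give the strain, sex or age of the hosts, the number of hairpins, whether a line is 1 clone, or whether replicates came from separate animals. A p-value thus reflects the spread among these libraries alone, and that spread may be technical.

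A cullin-RING ligase is built in layers. A substrate receptor such as Asb2 holds the target through its ankyrin repeats, and its SOCS box docks onto the elongin B and elongin C pair. The pair connects the receptor to the scaffold cullin 5, whose RING partner Rnf7 recruits the ubiquitin-charged enzyme. Asb2 is known from blood cells and from muscle, where it marks filamins, the long proteins that crosslink actin filaments, for degradation by the proteasome. Mlip is known as a protein of heart and skeletal muscle that binds lamin A/C, the product of Lmna, at the nuclear envelope.

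The promoters of Asb2 and Mlip are shown because only these members exceeded 2 times the highest shControl library in shSQLE replicates 2 and 5. RefSeq lists 2 starts for Asb2 on the minus strand of chromosome 12, and for Mlip 2 starts that lie close together on the minus strand of chromosome 9. Below are the 250 bases before each Asb2 start, at chr12:103356002-103356251 and chr12:103338391-103338640, and before the outer Mlip start, at chr9:77347871-77348120. All are from RefSeq on GRCm38.p6, a build other than the one the authors used. Capitals mark matches to the CArG box, the binding site of serum response factor, or to the E-box CAGCTG, a site of myogenic factors, on either strand.
Asb2 outer start: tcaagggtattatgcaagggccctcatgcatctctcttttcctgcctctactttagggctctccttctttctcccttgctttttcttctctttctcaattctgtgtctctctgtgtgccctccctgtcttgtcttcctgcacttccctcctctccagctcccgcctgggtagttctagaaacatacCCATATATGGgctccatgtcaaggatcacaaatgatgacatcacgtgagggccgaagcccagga
Asb2 inner start: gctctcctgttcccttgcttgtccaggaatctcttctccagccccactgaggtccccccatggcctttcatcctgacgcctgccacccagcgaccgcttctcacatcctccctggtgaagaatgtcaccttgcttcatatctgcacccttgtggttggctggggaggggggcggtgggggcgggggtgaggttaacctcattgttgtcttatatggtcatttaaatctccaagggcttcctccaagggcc
Mlip outer start: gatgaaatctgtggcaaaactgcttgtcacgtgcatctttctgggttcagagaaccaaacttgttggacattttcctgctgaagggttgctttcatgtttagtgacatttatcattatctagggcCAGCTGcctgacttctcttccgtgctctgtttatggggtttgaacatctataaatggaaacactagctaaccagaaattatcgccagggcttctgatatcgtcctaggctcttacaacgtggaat
The outer Asb2 window held the CArG box CCATATATGG from base -64 to -55, and a CArG box was found in 1.63% of 32851 such 300-base windows of 27025 genes. The inner Asb2 window held its E-box after the start, at bases 22 to 27, and the outer Mlip window held one from base -125 to -120. This E-box occurred in 16.3% of all windows. A MEF2 site, present in 3.19% of all windows, was found in none of the windows of the 8 members that matched the RefSeq table by symbol; Eloc did not match. The looser pattern of CTA, any 4 bases and TAG, at 3.69% of all windows, was found in 1 of the Flnc windows. These matches are letters in a window and do not show that a factor was bound. The counts are per gene, so transcripts from the inner and outer starts of Asb2 cannot be told apart. The gene antisense to Asb2, Gm15523, was at 0 in all 6 libraries.

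Asb2 was steady in the shControl tumours and much higher in 2 of the 3 shSQLE tumours. It stood at 13.1, 13.2 and 14.6 CPM (the gene's count relative to its library's total, with TMM scaling between libraries) in shControl. In shSQLE it stood at 18.1, 57.6 and 68.2 CPM, from 321, 1134 and 1236 counts. The shSQLE values were 1.32, 4.22 and 5.00 times the shControl mean, so the groups did not overlap, but shSQLE replicate 1 lay close to the controls. For that library the counting interval (exact Poisson, 95%) ran from 16.2 to 20.2 CPM, against 12.9 to 16.4 CPM in the highest control, shControl replicate 5. The separation depended on the scaling. As TPM (a level per length, with the same total in each library) shSQLE replicate 1 was at 6.94 TPM, against 6.71 TPM in shControl replicate 1. The group means were 13.6 ± 0.82 CPM and 47.9 ± 26.4 CPM (SD, n = 3 each), with a log2 fold change of 1.81 (SE 0.42). A bulk tumour sample mixes melanoma and host cells, and a change in the number of cells of a type cannot be told apart from a change in RNA per cell.

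Mlip followed the same order of libraries in shSQLE at a much lower level. It held 23, 19 and 10 counts in shControl, which is 1.25, 1.12 and 0.546 CPM. In shSQLE it held 38, 124 and 146 counts, which is 2.14, 6.29 and 8.05 CPM. Again the groups did not overlap, and again replicates 2 and 5 stood far above replicate 1. The counting interval of shSQLE replicate 1, 1.51 to 2.94 CPM, overlapped that of shControl replicate 1, 0.794 to 1.88 CPM. The group means were 0.973 ± 0.38 CPM and 5.50 ± 3.04 CPM (SD, n = 3 each). The fitted log2 fold change was 2.49 (SE 0.56). Among all tested genes 6.44% had groups without overlap, 3.1% with every shSQLE library above every shControl library. Of the 9 members 2 did, Asb2 and Mlip, which the choice of members had fixed. Both Asb2 and Mlip belonged to the 73 genes, 0.55% of those tested, that exceeded 2 times the highest shControl library in shSQLE replicates 2 and 5 but not in replicate 1, a pattern defined after the values were seen. The level per length of Asb2 was 3.95, 4.27 and 3.96 times that of Mlip in shSQLE. In shControl that ratio was 4.90, 5.51 and 12.5, with the last resting on 10 Mlip counts.

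**Figure D1:**
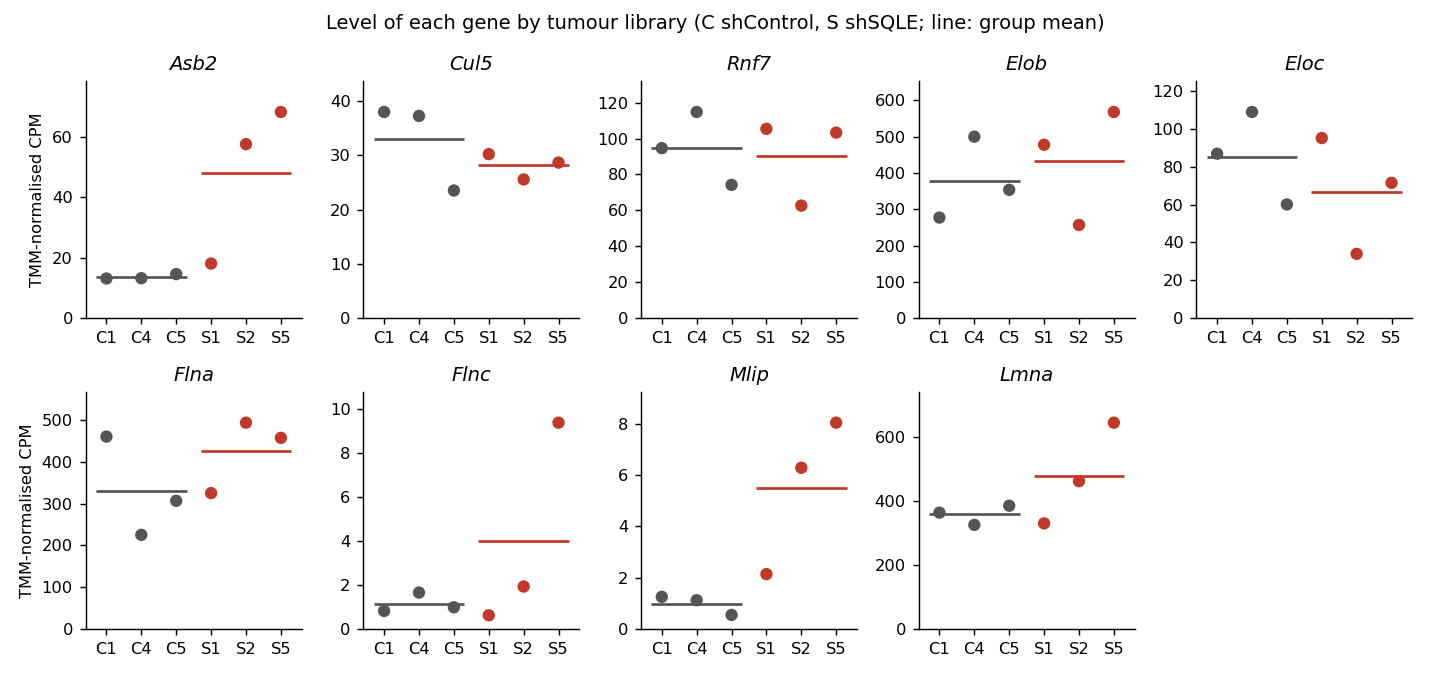
TMM-normalised CPM of the 9 genes in each library, with C for shControl and S for shSQLE; lines are group means and each panel has its own axis from 0. Asb2 and Mlip stand out in S2 and S5, at 57.6 and 68.2 CPM and at 6.29 and 8.05 CPM, while S1 lies near the controls.

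Over all tested genes edgeR's quasi-likelihood test called none (0 genes, 0%) after Benjamini-Hochberg adjustment at 0.05. Its unadjusted p was under 0.05 for 413 genes (3.11%), of which 198 (1.49%) were higher and 215 (1.62%) lower in shSQLE. With DESeq2 the adjusted count was 8 (0.0603%) and the unadjusted count 471 (3.55%), and with limma voom they were 0 (0%) and 374 (2.82%). Without shSQLE replicate 1 edgeR called 31 genes, 0.227% of the 13648 then tested. For each of the 7 members proposed for their roles the edgeR adjusted p over all genes was 0.9996. Sqle itself was at 48.2% of its control level. Total expected counts ranged from 16408622 to 19142185. Melanocyte markers were abundant in all libraries, with summed levels of 13510 to 15710 CPM in shControl and 14910 to 17490 CPM in shSQLE, and Pmel, a melanosome fibre protein, had the highest mean over the 6 libraries, at 4054 to 5474 CPM.

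Skeletal muscle markers moved with the same library that was highest for Asb2 and Mlip. The summed level of the 17 markers was 18.1, 205 and 21.5 CPM in shControl and 38.5, 93.1 and 1765 CPM in shSQLE. Of the 15 tested markers 14 were highest in shSQLE replicate 5, and the most abundant, skeletal actin Acta1, reached 645 CPM there. None of the 17 was at 0 in every library. In shControl replicate 4 the summed level of these markers was higher than in shSQLE replicate 2, with 13.2 CPM of Asb2 and 1.12 CPM of Mlip against 57.6 and 6.29 CPM. With the mean of the muscle markers as a covariate, the log2 fold change of Asb2 was 1.34 (SE 0.47) and that of Mlip 1.93 (SE 0.59). Without shSQLE replicate 5 they were 1.49 and 2.13. Asb5 and Asb11, which are known from muscle, were near the detection limit in all libraries but that one. Asb5 was at 1.99 CPM and Asb11 at 2.32 CPM in shSQLE replicate 5, and at most 0.254 and 0.109 CPM in the other 5 libraries. Not all Asb genes did so, and Asb8 was at 28.1 to 43.3 CPM over the 6 libraries.

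Markers of other cell types were compared in the same way. The 9 cardiac markers summed to 14.8, 9.03 and 8.57 CPM in shControl and to 10.0, 36.3 and 35.6 CPM in shSQLE, high in the same libraries as Asb2. Most of each of these last sums was Nppb, which encodes a natriuretic peptide, at 28.4 and 29.8 CPM. The cardiac troponin gene Tnnt2 was high in the same libraries, at 3.45 and 3.42 CPM in shSQLE replicates 2 and 5 against 0.710 to 1.53 CPM in the others. The cardiac myosin heavy chain Myh6 was at 2.44 CPM in shSQLE replicate 2 and at most 0.109 CPM in the others, and cardiac actin Actc1 was highest in shControl replicate 4, at 3.84 CPM. Of the other 5, Tnni3, Mybpc3, Nppa and Ryr2 were at most 0.254 CPM, and the cardiac myosin light chain Myl7 was at 0 in all 6 libraries. The mean log2 CPM of the 3 tested cardiac markers, Nppb, Tnnt2 and Actc1, had a Pearson r of 0.88 with Asb2 and 0.92 with Mlip over the 6 libraries, the highest of the 8 cell type lists, against 0.695 and 0.708 for skeletal muscle. These libraries share depth and scaling, so the r is a description. The 13 T and NK cell markers summed to 2.89 to 16.8 CPM in shControl and 0.732 to 5.41 CPM in shSQLE, and were highest in shControl replicate 5, where Asb2 was at 14.6 CPM. In shSQLE replicate 2 they summed to 3.75 CPM. Their most abundant gene was the cytotoxic granule gene Nkg7. Macrophage markers summed to 163 to 549 CPM in shControl and 93.2 to 487 CPM in shSQLE, with 11 of 12 lower in shSQLE and the lysozyme gene Lyz2 most abundant. Fibroblast markers summed to 142 to 544 CPM and 58.8 to 430 CPM, with all 9 tested lower and collagen Col1a1 most abundant. For both lists shSQLE replicate 1 alone lay below the range of the controls. In shSQLE replicates 2 and 5 the macrophage sums were 271.5 and 487 CPM and the fibroblast sums 295 and 430 CPM, within that range. Endothelial markers summed to 46.9 to 157 CPM in shControl and 56.0 to 83.4 CPM in shSQLE, and their most abundant gene was Vwf, which encodes von Willebrand factor. Smooth muscle and mural markers summed to 123 to 219 CPM and 131 to 145 CPM, with the smooth muscle gene Smtn most abundant. All 9 endothelial and all 7 tested smooth muscle and mural markers were lower in shSQLE, but all 9 and 6 of the 7 were highest in shControl replicate 1. In shControl replicates 4 and 5 the endothelial sums were 46.9 and 91.3 CPM, on either side of the shSQLE sums. The smooth muscle and mural sums there were 123 and 159 CPM, also on either side. None of the markers of these cell types passed edgeR's test over all genes, where 0% of all tested genes did. Beyond the covariate values above, the part of skeletal muscle in the Asb2 and Mlip values was not tested, nor was that of the cardiac markers.

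**Figure D2:**
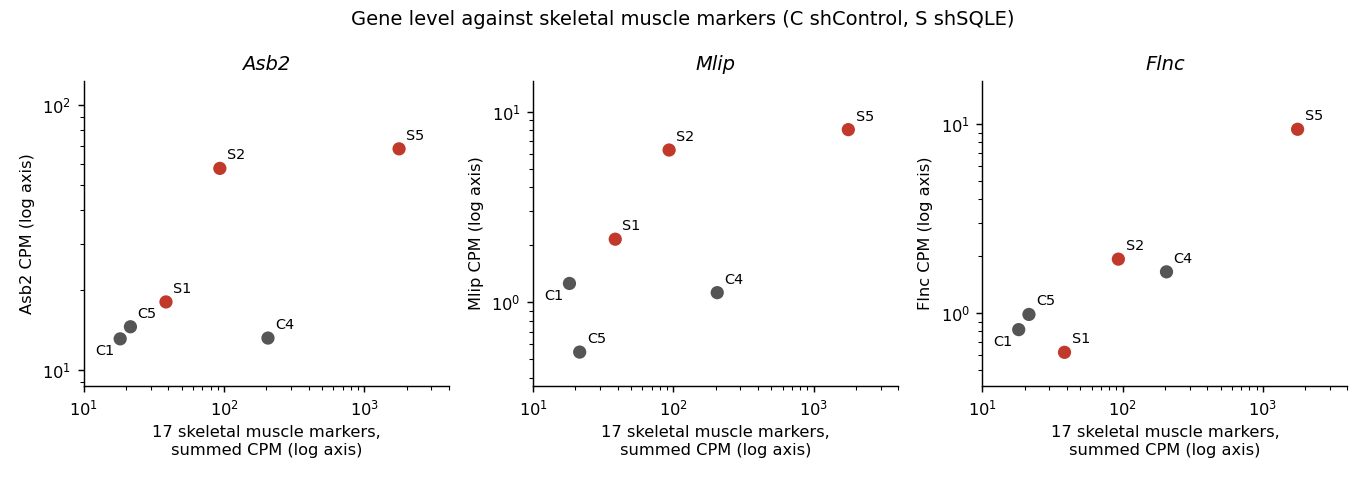
Level of Asb2, Mlip and Flnc (CPM, log axis) against the summed level of 17 skeletal muscle markers (CPM, log axis) in each library, C for shControl and S for shSQLE. Flnc and the markers are both highest in S5, whereas C4, at 205 CPM of markers, holds less Asb2 and Mlip than S2, at 93.1 CPM of markers.

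The genes with profiles most like Asb2 over the 6 libraries were Fam178b, Orc1, Slc6a8, Dok5 and Agk, with Pearson r of 0.998 to 0.989 on log2 CPM. Their log2 fold changes were smaller than that of Asb2, from 0.30 for Orc1, a subunit of the origin recognition complex, to 1.41 for Fam178b. The creatine transporter Slc6a8 stood between 89.4 and 98.8 CPM in the controls, and at 107, 170 and 189 CPM in the knockdown tumours. For Mlip the nearest profiles were Josd1, Parpbp, Capza1, Mau2 and Slc9a5, with r of 0.996 to 0.978, and the actin capping subunit Capza1 differed by only 0.19 on the log2 scale. The r between Asb2 and Mlip was 0.94, which placed Mlip 94th among the genes like Asb2. Both were proposed from the contrast of these same libraries, so a high r between them follows in part from that choice. These r values describe 6 points that share a scaling, with 13268 genes searched.

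The adaptor and scaffold genes of the ligase did not show the Asb2 pattern. Elongin B, Elob, stood at 277, 500 and 353 CPM in shControl and at 477, 257 and 568 CPM in shSQLE, a log2 fold change of 0.20 (SE 0.34) that was -0.04 without shSQLE replicate 5. The groups overlapped throughout, with the lowest and the highest library both in shSQLE. Srrm2, a splicing factor gene, overlaps Elob on the opposite strand and held 124 to 344 CPM. The use of strand is not stated, but the expected counts of Elob were whole in every library. They thus show no division of reads between Elob and another gene. Elongin C, Eloc, stood at 86.9, 109 and 60.1 CPM in shControl and at 95.1, 34 and 71.5 CPM in shSQLE, a log2 fold change of -0.35 (SE 0.37). It was lowest in shSQLE replicate 2, one of the libraries where Asb2 was high. Elob was above Eloc per length in each library, by 4.53, 6.52 and 8.36 times in shControl and by 7.13, 10.7 and 11.3 times in shSQLE. The groups overlapped for this ratio, since shSQLE replicate 1 lay below shControl replicate 5.

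Cullin 5, the scaffold, varied little. Cul5 stood at 38.0, 37.3 and 23.5 CPM in shControl and at 30.2, 25.6 and 28.7 CPM in shSQLE, a log2 fold change of -0.23 (SE 0.23). All 3 shSQLE libraries lay within the range of the controls. The RING subunit Rnf7 stood at 94.7, 115 and 74.2 CPM in shControl and at 105, 62.7 and 103 CPM in shSQLE, a log2 fold change of -0.06 (SE 0.26) whose sign turned without shControl replicate 4 (0.10) and without shSQLE replicate 2 (0.14). In CPM all 4 ligase partners, Cul5, Rnf7, Elob and Eloc, had their lowest shSQLE value in replicate 2. In TPM Cul5 was instead highest there, at 6.13 TPM against 5.50 and 5.46 TPM in shSQLE replicates 1 and 5. A low value in that library was not particular to the partners. The mean log2 CPM of the 29 cullin-RING assembly and neddylation genes described below was 5.98 there, against 6.10 and 6.08 in shSQLE replicates 1 and 5. Per length, Asb2 was at 0.728, 0.747 and 1.31 times the level of Cul5 in shControl and at 1.26, 4.74 and 5.01 times in shSQLE.

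Flna, the widely expressed filamin, differed between libraries of each group more than between the groups. It stood at 461, 226 and 307 CPM in shControl and at 326, 494 and 458 CPM in shSQLE, a log2 fold change of 0.36 (SE 0.30). The highest control lay above shSQLE replicates 1 and 5.

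Flnc, the filamin of striated muscle, was low in all tumours except shSQLE replicate 5. It held 15, 28 and 18 counts in shControl and 11, 38 and 170 counts in shSQLE, which is 0.817, 1.65, 0.983, 0.620, 1.93 and 9.38 CPM in that order. The library labelled shSQLE replicate 1 was the lowest of all 6, so the groups overlapped. The log2 fold change was 1.79 (SE 0.85), and 0.17 without shSQLE replicate 5. With the muscle markers as a covariate it was -0.056, so its direction turned. The nearest profiles were those of Smoc2, Hspb7, Mustn1, Des and Myh4 (r from 0.985 to 0.978). Of these, desmin (Des), the muscle intermediate filament, was at 186 CPM in shSQLE replicate 5, against 9.94 to 32.5 CPM in the others, and the fast myosin heavy chain Myh4 reached 50.3 CPM there against at most 1.48 CPM.

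Flnc was a very small part of the filamin transcripts of these 2 members. As TPM (a level per length, with the same total in each library), Flna and Flnc together were at 163, 62.0 and 93.2 TPM in shControl and at 86.4, 173 and 128 TPM in shSQLE. The groups overlapped, with means of 106 ± 51.6 TPM and 129 ± 43.3 TPM (SD, n = 3 each; exact two-sided permutation p = 0.6, where 3 libraries against 3 can give no less than 0.1). The log2 difference of 0.34 was 0.011 without shControl replicate 4 and 0.71 without shControl replicate 1. Flnc made up 0.0724%, 0.298% and 0.131% of that sum in shControl and 0.0777%, 0.159% and 0.830% in shSQLE (exact two-sided permutation p = 0.6). The groups overlapped here too, since shSQLE replicate 5 alone lay above the controls, and without it the difference of the means turned from 0.188 to -0.0487 percentage points. The effective length deposited for Flna, 3561 bases, is well under its longest annotated transcript of 8456 bases. With the longest transcript of each gene as length, chosen after seeing the data, the mean share of Flnc was 0.382% ± 0.27 in shControl and 0.807% ± 0.93 in shSQLE (SD, n = 3 each).

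**Figure D3:**
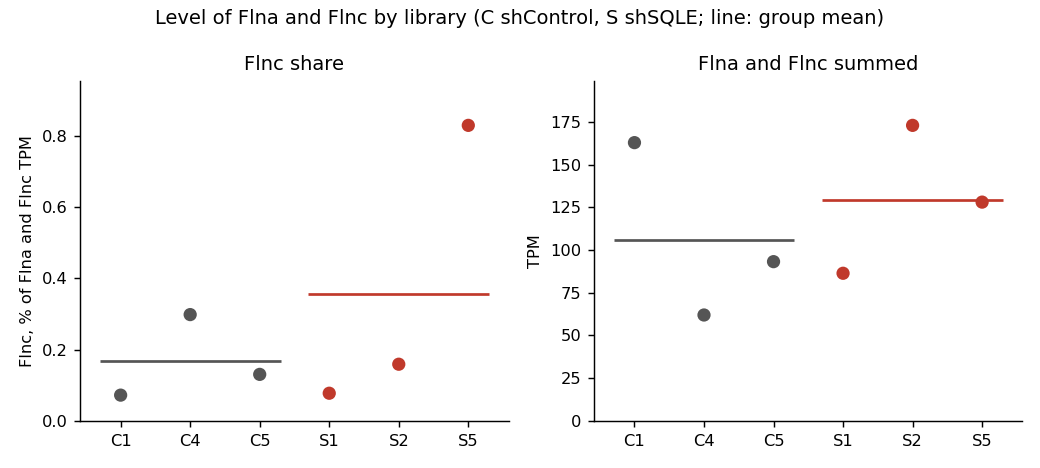
Share of Flnc in the summed TPM of Flna and Flnc (left, percent) and that sum (right, TPM) in each library, C for shControl and S for shSQLE, with lines at the group means. The Flnc share stands out in S5, at 0.830%, while the sum overlaps between the groups, from 62.0 TPM in C4 to 173 TPM in S2.

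Lmna, which encodes lamin A/C, was highest in the libraries where Asb2 and Mlip were high, but by less. It stood at 363, 325 and 384.5 CPM in shControl and at 330, 461 and 644 CPM in shSQLE. The groups overlapped because shSQLE replicate 1 lay among the controls. The means were 357 ± 30.3 CPM and 478 ± 158 CPM (SD, n = 3 each). The fitted log2 fold change of Lmna was 0.42 (SE 0.27), and it was 0.16 without shSQLE replicate 5 and 0.18 with the muscle markers as a covariate. Per length, Mlip was at 0.602%, 0.602% and 0.248% of the level of Lmna in shControl and at 1.13%, 2.38% and 2.18% in shSQLE.

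Ranked per length in shControl, Elob was first at 1285 ± 231 TPM, followed by Eloc at 208 ± 55.3 TPM and Lmna at 198 ± 35.8 TPM (SD, n = 3 each), which did not differ beyond their spread. Rnf7 at 112 ± 22.5 TPM and Flna at 106 ± 51.7 TPM came next and did not differ beyond their spread either. Cul5 at 7.04 ± 2.16 TPM and Asb2 at 6.11 ± 0.77 TPM were also close. Mlip at 0.945 ± 0.43 TPM and Flnc at 0.142 ± 0.038 TPM were the lowest of the 9. In shSQLE the mean of Asb2, 21.1 ± 12.3 TPM, lay above that of Cul5, at 5.70 ± 0.38 TPM. The mean of Mlip, 5.16 ± 2.95 TPM, was close to that of Cul5, but in shSQLE replicate 1 Mlip was at 1.76 TPM against 5.50 TPM. Among the shSQLE means, Lmna at 253 ± 85.9 TPM, Eloc at 151 ± 53.3 TPM, Flna at 129 ± 43.2 TPM and Rnf7 at 101 ± 14.3 TPM lay between Elob and Asb2, each within the spread of its neighbour but for Lmna and Eloc, whose means differed by more than either SD. These ranks depend on the deposited effective lengths. Those of Mlip (1149 bases) and Flna (3561 bases) are well under their longest annotated transcripts, of 3069 and 8456 bases.

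**Figure D4:**
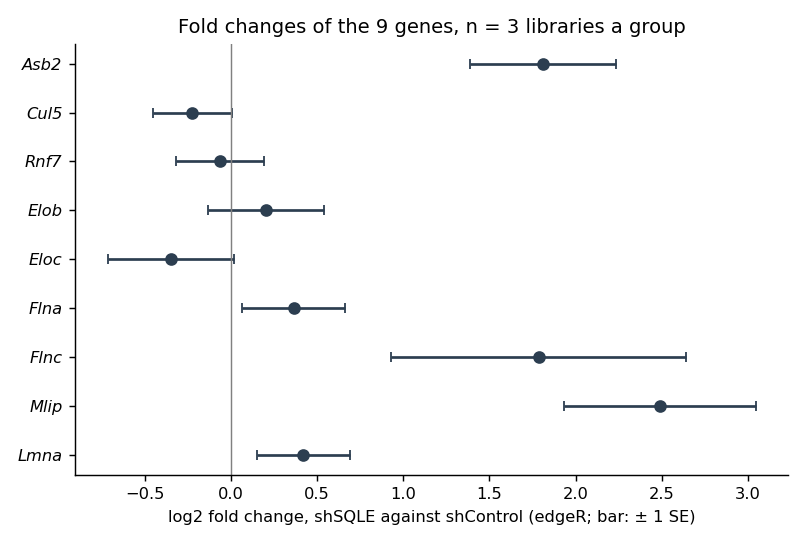
Log2 fold change of shSQLE against shControl for the 9 genes, with bars of 1 SE from edgeR's fit over all 13268 tested genes (n = 3 libraries a group). Asb2 (1.81), Flnc (1.79) and Mlip (2.49) lie farthest from 0, with the widest bar for Flnc (SE 0.85).

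Other genes of the same machinery were described from 5 lists chosen by function. None of their tested genes passed edgeR's test over all genes, where 0% of all tested genes did, and the median log2 fold change over all tested genes was -0.02. Of 29 other Asb and SOCS-box receptors, which dock onto the same elongins, 19 were tested. Of these 6 lay above 0 and 13 below, and the median was -0.19. Socs2, which restrains growth hormone signalling, had the smallest p of the list. It stood at 2.89, 2.77 and 2.84 CPM in shControl and at 1.41, 1.78 and 1.38 CPM in shSQLE, a log2 fold change of -0.89 (SE 0.34). The groups of Socs2 did not overlap, as in 3.35% of all tested genes in that direction. The cytokine feedback inhibitor Cish followed at -0.68 (SE 0.35). All 29 genes of cullin-RING assembly and neddylation were tested, 15 higher and 14 lower, with a median of 0.0050 and a range from -0.31 to 0.35. Those with the smallest p were Arih2, the ligase that works with neddylated cullin 5, at -0.31 (SE 0.20), and the neddylation factor Dcun1d2 at 0.30 (SE 0.22).

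Of 25 filamin-binding and actin crosslinking genes 22 were tested, 11 higher and 11 lower, with a median of -0.03. Fblim1, which couples filamin to integrin adhesions, stood at 16.7, 8.03 and 11.7 CPM in shControl and at 6.48, 6.19 and 5.30 CPM in shSQLE. Its groups did not overlap, as in 3.35% of all tested genes in that direction, and its log2 fold change was -1.02 (SE 0.31). The focal adhesion gene Zyx stood at 281, 169 and 349 CPM in shControl and at 322, 722 and 651 CPM in shSQLE, a log2 fold change of 1.09 (SE 0.37). Its shSQLE replicates 2 and 5 were the highest of the 6 libraries, as for Asb2, while replicate 1 lay among the controls.

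Of the 16 filamin C partners of the Z-disc and sarcolemma only 9 passed the filter on low counts, 8 of them higher in shSQLE, with a median of 2.00. This list held the muscle genes that follow shSQLE replicate 5, where 5 of the 9 were highest, and its median was 0.26 without that library and 0.21 with the muscle markers as a covariate. Ldb3, a Z-disc PDZ protein, stood at 10.3 CPM in shSQLE replicate 5 and at most 0.812 CPM elsewhere, a log2 fold change of 3.75 (SE 1.23). Its groups did not overlap, as in 3.1% of all tested genes in that direction. The margin was narrow, with 0.620 CPM in shSQLE replicate 1 against 0.590 CPM in shControl replicate 4. The chaperone Cryab, which is not limited to muscle, was higher in shSQLE replicates 2 and 5 at 404 and 397 CPM than in the other 4 libraries, at 117 to 238 CPM, a log2 fold change of 0.77 (SE 0.36). All 23 nuclear lamina and envelope genes were tested, 11 higher and 12 lower, with a median of -0.02. The B-type lamin Lmnb2 was at 37.2, 40.3 and 36.0 CPM in shControl and at 43.5, 46.0 and 57.3 CPM in shSQLE. Its groups too were without overlap, as in 3.1% of all tested genes in that direction, with a log2 fold change of 0.37 (SE 0.19). Emerin, Emd, was at 0.36 (SE 0.28) with overlapping groups.

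**Figure D5:**
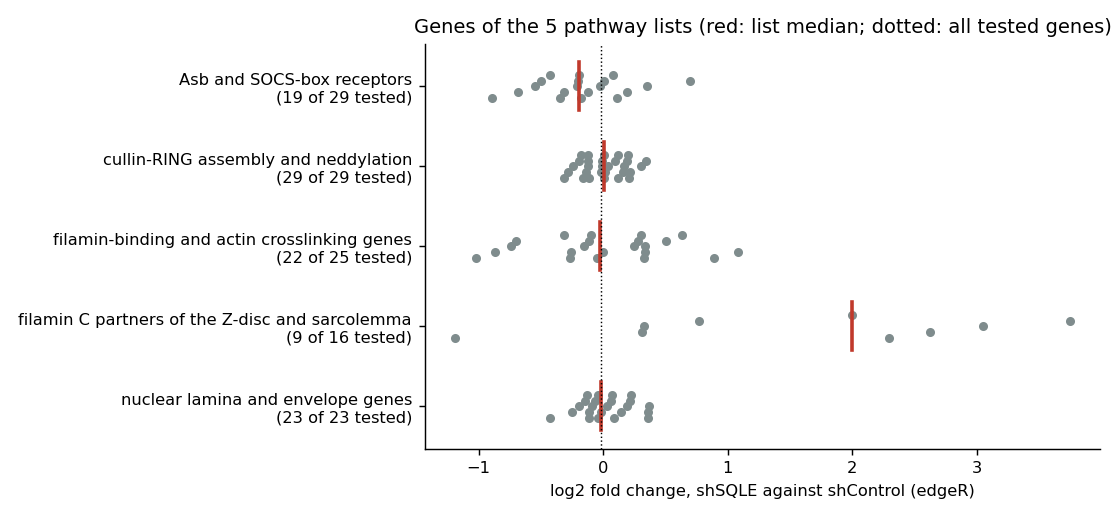
Log2 fold change of shSQLE against shControl for the tested genes of the 5 lists, 1 point a gene, with the list median in red and the median of all tested genes (-0.02) dotted. The filamin C partners spread to the right around a median of 2.00, while the medians of the other 4 lists lie between -0.19 and 0.0050.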

How the data were processed

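RNA sequencing libraries of 3 shControl and 3 shSQLE tumours were grouped by their GEO titles. The deposited table holds the authors' expected counts per gene and library. Build GRCm39 and the tools STAR, RSEM, FastQC and DESeq2 are named, per the submitters' processing notes. The sources used here do not give versions, the annotation release or the use of strand. Expected counts divide reads shared between genes; those of the 9 members were whole in every library. The deposited table also holds 1 length and 1 effective length per gene, in bases, in other columns.

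Counts were rounded to whole numbers and filtered with filterByExpr (minimum count 10, minimum total 15). Genes were tested with edgeR 4.0.16 in R 4.3.3 (TMM factors, glmQLFit with robust=TRUE, glmQLFTest, group as the only term, Benjamini-Hochberg adjustment over all tested genes, threshold 0.05); the SE is the log2 fold change divided by the square root of F. TPM was computed from the counts and the effective length. The filamin composition was computed over Flna and Flnc, a narrower sum than planned. Log2 CPM used a prior count of 2. Intervals cover counting error only. Alternatives used DESeq2 1.42.0, limma 3.58.1, other scalings and filters, covariates, a replicate block and leaving out single libraries. The test was checked on simulated counts. From each pathway list the 2 genes with the smallest p are named, and from each marker list the most abundant gene described. For Asb2, Mlip and Flnc the 5 genes with the highest r are named. The other cardiac markers, Asb5, Asb8, Asb11 and Gm15523 were named after their values were seen. The members and lists were chosen with earlier results of these data known. Overlapping genes were read from GENCODE M21 by name. Libraries of a group differed beyond counting noise, and each was 1 replicate. One planned gene is not reported here. Figures were drawn with matplotlib 3.10.9.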

Additional observations from a re-analysis of the deposited data

How the results depend on the processing

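The count of genes past the threshold, 0 in the edgeR test, was 8 with DESeq2 and between 0 and 31 with each library left out in turn. DESeq2 put Asb2 (1.82) and Mlip (2.51) past its threshold, and edgeR put Asb2 past it without shSQLE replicate 1; both genes were chosen on this contrast, so these calls add no support. With each library left out Asb2 ranged from 1.49 to 2.21. With the skeletal muscle markers as a covariate the sign turned for Flnc (-0.056) and Elob (-0.026), and the median of the filamin C partners was 0.21. With the smooth muscle and mural markers, added after seeing the data, it turned for Elob (-0.057). With each library left out, Rnf7 ranged from -0.21 to 0.14, Elob from -0.04 to 0.475, the difference in the Flnc share from -0.0487 to 0.327 percentage points, the log2 difference in summed Flna and Flnc TPM from 0.011 to 0.71, the median of the Asb and SOCS-box list from -0.25 to -0.10 and that of the filamin C partners from 0.26 to 2.92. The cause of these changes was not tested. Flna, Cul5 and Lmna kept their direction under all 15 alternatives, but with the replicate number as a block Flna was at only 0.038 and Cul5 at -0.024. Asb2 and Mlip kept theirs too, which adds no support because both were chosen on this contrast. Replicate numbers 1 and 5 occur in both groups, and the sources used here do not say whether these samples were paired. Their deviations from the group means had r of -0.13 and 0.07. With means of 3 libraries a group, these r cannot exclude a pairing or a shared batch. With the replicate number as a block, 41 genes passed, Rnf7 was at 0.32 and Eloc at 0.19. Replicate numbers 2 and 4 lack a match in the other group, so that fit compares the groups within numbers 1 and 5 alone. Mlip in shControl and Flnc outside shSQLE replicate 5 rest on under 40 counts a library, so their counting intervals are wide.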
